A study of Mus musculus with 12 samples.

Results

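The levels of 9 genes of the contractile and injury-associated equipment of cells were followed across the 4 groups of a mouse pancreas study: the cytoskeletal actins Actb and Actg1, the tropomyosins Tpm1 and Tpm4, the nonmuscle myosin heavy chain Myh9, the filamin Flna, the beta-tubulin Tubb6, and the surface receptors Tnfrsf12a and Cd44. They were taken as every probe set whose platform annotation gave 1 gene symbol and that symbol was one of these 9 genes, with the actin controls of the array maker kept apart. This gave 17 probe sets of 22452 that were not controls, and all 17 passed the filter on dim probe sets that left 15716 for testing. The 4 groups were Mist1KO pancreata after caerulein, Mist1KO pancreata after saline, wild type pancreata after caerulein and wild type pancreata after saline, with 3 pancreata and 3 arrays in each. Mist1KO mice lack Mist1 (gene Bhlha15), a transcription factor of enzyme-secreting cells, and caerulein is an analogue of cholecystokinin that overstimulates the acinar cells of the pancreas. All animals were males aged 2 to 4 months that received hourly injections over 4 hours, wild type mice were C57BL6, and RNA came from the whole organ. The strain background of the Mist1KO mice, the dose of caerulein and whether the deletion was confined to a tissue are details that the labels do not give.

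Actin monomers assemble into filaments that line the secretory surface of acinar cells, form a web beneath the membrane and carry tension along the base of the cell. Tropomyosins coil along those filaments and decide which partners may bind, nonmuscle myosin pulls on them, and filamins tie them into networks and to membrane receptors. Excess cholecystokinin signalling is known to disrupt the filament web beneath the secretory surface of acinar cells. Tnfrsf12a, also called Fn14, is the receptor of the cytokine TWEAK and is induced in many injured epithelia. CD44 binds hyaluronan and, through ezrin and its relatives, the actin web.

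After caerulein, 8 of the 9 genes were higher than after saline in Mist1KO pancreata, and 8 of 9 were higher in wild type pancreata. Each gene was read by its brightest probe set, meaning the one with the highest mean log2 value over the 12 arrays. Changes are log2 differences ± SE of the signal plus an offset of 18.7, with n = 3 pancreata per group, so a fold of a dim gene is understated. A gene rose or fell when its p-value from limma's moderated test, adjusted over all 15716 probe sets, was under 0.05. Earlier results of these data were known when the 9 genes were picked. Their counts and medians, here and below, thus describe the picked genes. Set beside the values of all genes, they are not independent support for an enrichment. Among all 9481 genes tested, 10.2% were higher after caerulein in Mist1KO and 8.74% in wild type. The median change of the 9 genes was 2.02 in Mist1KO and 1.51 in wild type, against -0.14 and -0.16 over all genes tested. Flna was the exception in both genotypes, and none of the 9 genes was lower, against 14.0% of all genes in Mist1KO and 9.96% in wild type. The caerulein arrays lay wholly above the saline arrays for 8 of 9 genes in each genotype, against 15.5% of all genes in Mist1KO and 12.4% in wild type. In whole organ RNA, a change in the number of cells of one type and a change in the RNA per cell cannot be told apart.

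**Figure D1:**
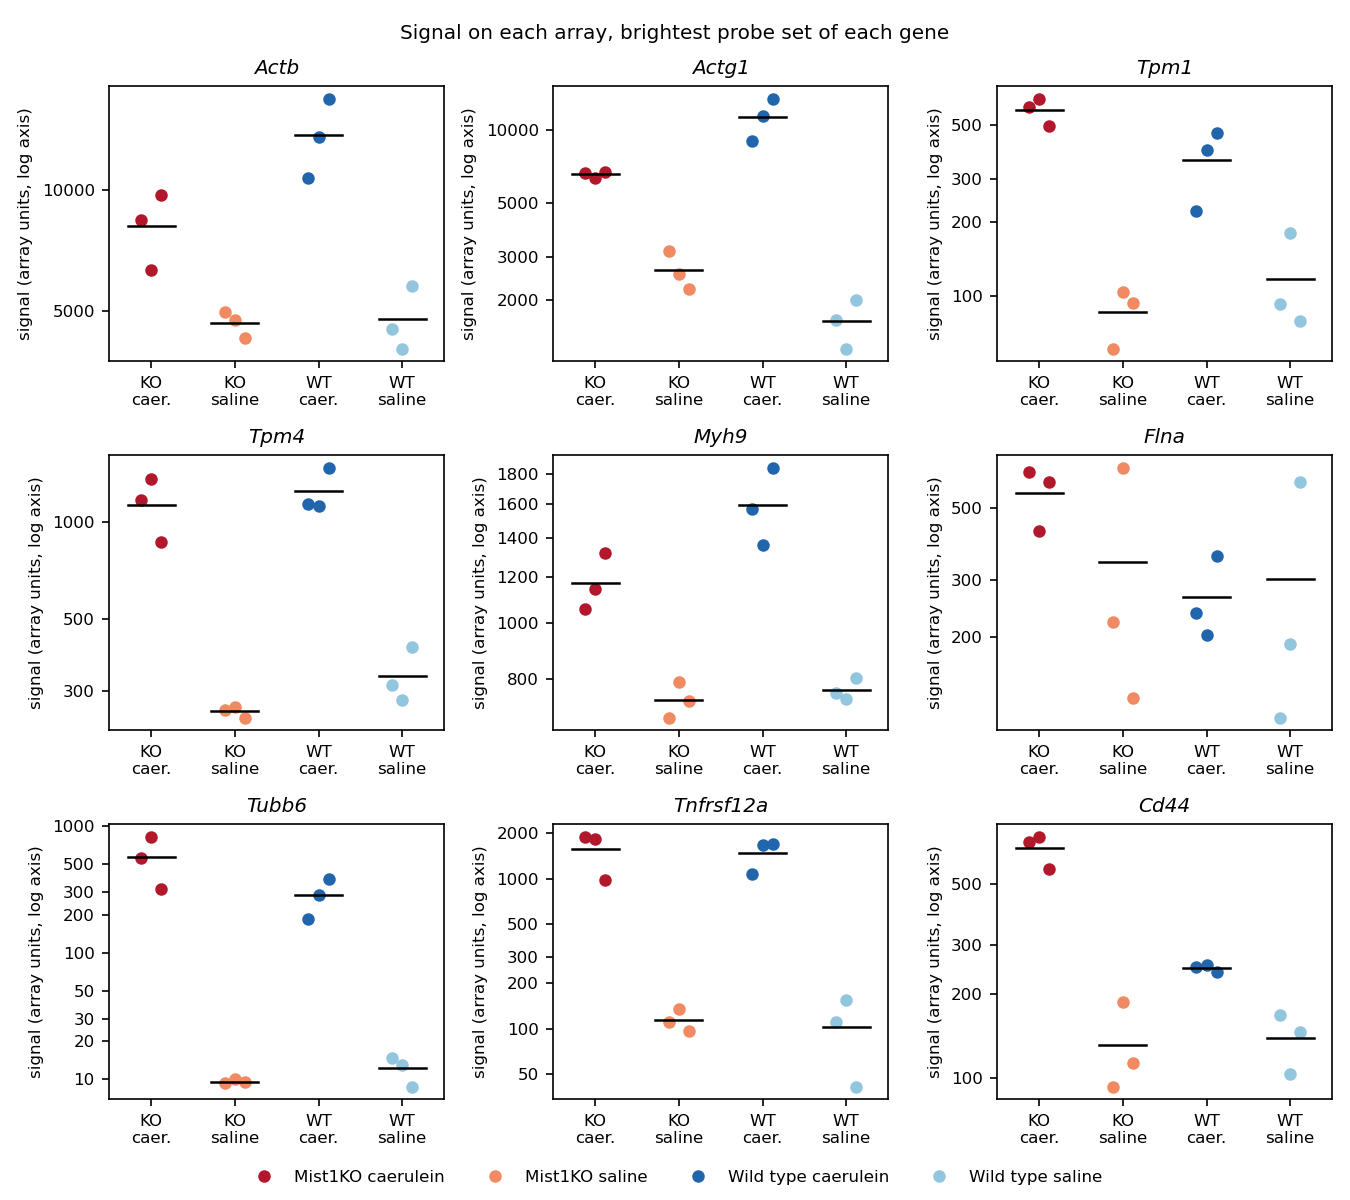
Signal of each gene on the 12 arrays, in array units on a log axis, with 1 point per pancreas and a bar at the mean of the 3 pancreata of a group. KO stands for Mist1KO, WT for wild type and caer. for caerulein. Caerulein points lie above saline points of the same genotype in every panel except that of Flna, Actb and Actg1 reach their highest values in wild type after caerulein, and Cd44 reaches its highest values in Mist1KO after caerulein.

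Between genotypes the 9 genes went different ways. After saline, 1 of 9 was higher in Mist1KO than in wild type and none was lower, against 6.14% of all genes higher and 6.95% lower. That gene was Actg1. The saline arrays of the genotypes did not overlap for Actg1, higher in Mist1KO, and for Tpm4, lower in Mist1KO by -0.33 ± 0.17 without passing the test (adjusted p = 0.237), against 14.4% and 19.7% of all genes. After caerulein, 2 of 9 were higher in Mist1KO than in wild type and 3 were lower, against 9.03% and 11.6% of all genes. Cd44 and Tubb6 were the higher ones, and Actb, Actg1 and Myh9 the lower ones. The caerulein response itself differed between genotypes in 2 of 9 genes, Cd44 and Actg1, in opposite directions. In this interaction test 3.34% of all genes passed, 1.48% with a larger and 1.87% with a smaller response in Mist1KO. After caerulein the arrays of the genotypes did not overlap for Tpm1, Flna and Cd44, higher in Mist1KO, and for Actb, Actg1 and Myh9, lower in Mist1KO, against 15.5% and 22.9% of all genes.

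Several measures of the arrays moved with the groups. The 3 arrays of Bhlha15 read 38.3 to 79.4 in Mist1KO after caerulein and 89.9 to 106.8 in Mist1KO after saline, against 729.5 to 838.5 in wild type after caerulein and 1601 to 1624.3 in wild type after saline. The hybridisation spikes are control transcripts added to every sample. The geometric mean of their signals was 408 to 513 on the Mist1KO caerulein arrays and 755 to 1009 on the Mist1KO saline arrays. It was 831 to 1443 on the wild type caerulein arrays and 1201 to 1325 on the wild type saline arrays. Their part in the results below was not tested.

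Actg1, which encodes gamma-actin of the cytoskeleton, lies on mouse chromosome 11, chr11:120345687-120348495 in GRCm38.p6. Its promoter is printed because it is the only one of the 7 members' promoters in the RefSeq table (GRCm38.p6) that holds the CArG box, the binding motif of serum response factor, which drives many actin genes. Capitals mark the box, which starts 90 bases upstream of the annotated start. The window runs from 250 bases before that start to 50 bases after it, at chr11:120348446-120348745 on the minus strand, 5′ to 3′.
Actg1 promoter: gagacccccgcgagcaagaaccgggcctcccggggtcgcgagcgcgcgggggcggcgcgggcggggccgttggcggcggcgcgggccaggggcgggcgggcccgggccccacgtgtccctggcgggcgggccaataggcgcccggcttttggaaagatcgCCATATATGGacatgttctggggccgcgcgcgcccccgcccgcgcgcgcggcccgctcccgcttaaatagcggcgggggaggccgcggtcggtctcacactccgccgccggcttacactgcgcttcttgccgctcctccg

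The CArG box was searched on both strands, and 1.63% of all 32851 promoters of this length in the table hold it. With exactly 1 mismatching base allowed, 19.9% of all promoters hold a site, as do those of Tpm1 and Flna among the members. The AP-1 motif TGANTCA occurs in 7.81% of all promoters and in 0 of the 7, and the TEAD motif GGAATG in 14.7% of all and in those of Tpm1 and Flna. A match describes the letters of this window and is not evidence of binding. The table held no promoter of Actb or Tubb6, so theirs were not searched.

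Actg1 read 6644.9, 6366.9 and 6714.1 in Mist1KO after caerulein and 3183.8, 2572.4 and 2233.1 in Mist1KO after saline. In wild type it read 8952.6, 11404.9 and 13414.1 after caerulein and 1666.3, 1270.8 and 2008.1 after saline. The 4 groups did not overlap at any point, in the order wild type caerulein, Mist1KO caerulein, Mist1KO saline, wild type saline. Caerulein raised Actg1 2.48-fold in Mist1KO (1.31 ± 0.18, adjusted p = 0.00014) and 6.79-fold in wild type (2.76 ± 0.18, adjusted p = 4.39e-07). The response in Mist1KO was smaller than that in wild type by a log2 difference of -1.45 ± 0.26 (interaction, adjusted p = 0.00863), and this call stood in all 21 alternatives, with adjusted p-values from 0.00616 to 0.0322. Actg1 was 1.62-fold higher in Mist1KO than in wild type after saline (0.70 ± 0.18, adjusted p = 0.0251) and 1.69-fold lower after caerulein (-0.75 ± 0.18, adjusted p = 0.0101).

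The saline difference of Actg1 missed the threshold without wild type saline replicate 1 (adjusted p = 0.056) or replicate 2 (adjusted p = 0.104) and without Mist1KO saline replicate 1 (adjusted p = 0.107) or replicate 2 (adjusted p = 0.0587). The difference after caerulein passed in all 22 alternatives, but its size was -0.40 after quantile normalization (adjusted p = 0.0481). The probe set of Actg1 has the suffix _s_at, which the array maker gave to sets whose probes match several transcripts, so signal from near-identical actin copies cannot be told apart from it.

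Actb encodes beta-actin, the partner of gamma-actin in nearly all cells, and lies at chr5:142903115-142907976. Its brightest probe set, 1436722_a_at, read 8415.3, 6311.1 and 9741.9 in Mist1KO after caerulein and 4976.2, 4752.9 and 4271.6 in Mist1KO after saline. The wild type signals were 10738, 13563.8 and 16891 after caerulein and 4503.7, 4031.5 and 5762.3 after saline. Caerulein and saline arrays did not overlap in either genotype, the caerulein arrays of Mist1KO all lay below those of wild type, and the saline arrays of the genotypes overlapped. Caerulein raised this probe set 1.72-fold in Mist1KO (0.78 ± 0.19, adjusted p = 0.00878) and 2.86-fold in wild type (1.51 ± 0.19, adjusted p = 9.47e-05). After caerulein it was 1.68-fold lower in Mist1KO than in wild type (-0.75 ± 0.19, adjusted p = 0.0142), while after saline the difference was -0.02 with a 95% interval from -0.43 to 0.40. The interaction was -0.73 ± 0.27 and did not pass (adjusted p = 0.182).

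The genotype difference of Actb after caerulein depended on scaling and on single arrays. After quantile normalization it was -0.09 (adjusted p = 0.723). Without wild type caerulein replicate 3 it was -0.59 (adjusted p = 0.0612), and without Mist1KO caerulein replicate 2 it was -0.58 (adjusted p = 0.0681). A further set of Actb probes, 1419734_at, did not share the rise. It averaged 364 ± 101 in Mist1KO after caerulein and 545 ± 92.5 in Mist1KO after saline, against 683 ± 141 and 934 ± 322 in wild type after caerulein and saline (SD, n = 3 each). Its caerulein changes of -0.58 ± 0.24 in Mist1KO (adjusted p = 0.103) and -0.41 ± 0.24 in wild type (adjusted p = 0.265) did not pass. After caerulein it was 1.85-fold lower in Mist1KO than in wild type (-0.89 ± 0.24, adjusted p = 0.0185), the direction that 1436722_a_at also had. Unlike 1436722_a_at, at -0.02, it lay lower in Mist1KO after saline too, without overlap. That saline difference of -0.72 ± 0.24 did not pass (adjusted p = 0.0671). Nor did the interaction of 1419734_at, -0.17 ± 0.34 (adjusted p = 0.864). With the mean over both probe sets, the caerulein change of Actb was 0.10 in Mist1KO (adjusted p = 0.765) and 0.55 in wild type (adjusted p = 0.0786). Of these 2 sets only the brighter one rose, and the separate actin controls, given next, rose too.

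The array maker's own actin controls, which are not among the 17 probe sets, read Actb at its 3′ end, middle and 5′ end. The 3′ control averaged 7884 ± 408 in Mist1KO after caerulein and 3626 ± 197 in Mist1KO after saline, against 11861 ± 2257 in wild type after caerulein and 3332 ± 418 in wild type after saline. The 5′ control averaged 7026 ± 415 with caerulein and 1995 ± 209 with saline in Mist1KO, and 8735 ± 1356 with caerulein and 2191 ± 397 with saline in wild type. Both ends were thus higher after caerulein in either genotype. The 3′ to 5′ ratio, a measure of how far labelling reached along the transcript, was 1.12 ± 0.0647 with caerulein and 1.82 ± 0.113 with saline in Mist1KO, and 1.35 ± 0.0661 with caerulein and 1.53 ± 0.109 with saline in wild type. It moved with injection and genotype, and its part in the Actb differences was not tested.

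Within an array, gamma-actin gained on beta-actin after caerulein. The log2 difference of Actg1 and Actb signals was -0.34, 0.01 and -0.54 in Mist1KO after caerulein and -0.64, -0.88 and -0.93 in Mist1KO after saline. It was -0.26, -0.25 and -0.33 in wild type after caerulein and -1.42, -1.65 and -1.51 in wild type after saline. These values compare 2 probe sets only as a change between groups, since levels of different probe sets are not on one scale. The mean shift was 0.53 in Mist1KO and 1.25 in wild type, without overlap in either, and Mist1KO already lay 0.71 above wild type after saline. After caerulein the genotypes overlapped and differed by -0.01. An exact permutation test of 3 against 3 arrays, two-sided, cannot go below p = 0.1, and each of the 3 shifts reached that value (0.133 after adjustment over the 4 comparisons); the last comparison gave p = 0.9. The measure was chosen after the values were seen. Set against the actin controls, the gain in Mist1KO depended on the control. The middle control averaged 6849 after caerulein and 2006 after saline there, and the 5′ control 7026 and 1995. Both rose more than Actg1, at 6575 and 2663, whereas the 3′ control, at 7884 and 3626, rose less. In wild type each control rose less than Actg1, the middle one averaging 8835 and 1978 against 11257 and 1648 for Actg1.

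Acta2, the smooth muscle actin, was looked up after the values of the cytoskeletal actins were seen. It averaged 306 in Mist1KO after caerulein and 288 in Mist1KO after saline, against 382 in wild type after caerulein and 346 in wild type after saline. Its caerulein changes of 0.09 in Mist1KO (adjusted p = 0.699) and 0.13 in wild type (adjusted p = 0.549) did not pass.

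Tropomyosins are named by gene, and each gene yields several proteins through alternative promoters and splicing. Tpm1 encodes alpha-tropomyosin and lies at chr9:67022590-67049672. Its promoter is printed because, among the genes that rose and had a promoter in the RefSeq table, it alone held near matches to the CArG box. Capitals mark 2 sites that differ from the consensus by 1 base, which start 221 and 80 bases upstream of an annotated start, and 1 TEAD motif that starts 56 bases upstream. The window, chr9:67049164-67049463 on the minus strand, lies inside the annotated gene and is given 5′ to 3′.
Tpm1 promoter: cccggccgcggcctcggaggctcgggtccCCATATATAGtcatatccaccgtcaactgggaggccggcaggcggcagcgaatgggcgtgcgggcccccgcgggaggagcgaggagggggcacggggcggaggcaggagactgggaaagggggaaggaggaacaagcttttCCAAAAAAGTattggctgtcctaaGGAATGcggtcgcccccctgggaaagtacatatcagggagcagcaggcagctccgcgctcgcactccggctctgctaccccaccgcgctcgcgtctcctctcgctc

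By its brightest probe set, 1423049_a_at, Tpm1 read 594.2, 641.1 and 496 in Mist1KO after caerulein and 61.2, 103.8 and 93.7 in Mist1KO after saline. Wild type pancreata read 223.8, 394.1 and 464.1 after caerulein and 93.4, 181.9 and 78.9 after saline. Every caerulein array lay above every saline array, and the 3 Mist1KO caerulein arrays lay above the 3 of wild type. Tpm1 rose 5.74-fold in Mist1KO (2.52 ± 0.29, adjusted p = 2.48e-05) and 2.80-fold in wild type (1.49 ± 0.29, adjusted p = 0.00248). The genotype difference after caerulein, 0.70 ± 0.29, did not pass (adjusted p = 0.103), and neither did the interaction, 1.03 ± 0.41 (adjusted p = 0.211).

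The probe set 1423721_at gave the same picture, with rises of 1.82 ± 0.21 in Mist1KO (adjusted p = 3.19e-05) and 1.22 ± 0.21 in wild type (adjusted p = 0.0012). By this set Tpm1 was 1.69-fold higher in Mist1KO than in wild type after caerulein (0.75 ± 0.21, adjusted p = 0.0234). The third, 1456623_at, was dimmer and behaved otherwise. It averaged 86.7 ± 23.5 in Mist1KO after caerulein and 76.7 ± 33.7 in Mist1KO after saline, against 109 ± 34.1 in wild type after caerulein and 35.8 ± 25.2 in wild type after saline. It rose in wild type (1.30 ± 0.34, adjusted p = 0.0166), and its change of 0.17 ± 0.34 in Mist1KO did not pass (adjusted p = 0.765). Which Tpm1 transcripts each set reads was not analysed here.

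Tpm4, a short tropomyosin of nonmuscle cells, lies at chr8:72135288-72153142 and has 1 probe set. It read 1167.7, 1350.1 and 868.2 in Mist1KO after caerulein and 263.4, 268.2 and 249 in Mist1KO after saline. The wild type arrays gave 1134.3, 1116.2 and 1469 after caerulein and 312.7, 281.1 and 411 after saline. The injections were far apart in both genotypes, and the genotypes overlapped after caerulein. Tpm4 rose 4.05-fold in Mist1KO (2.02 ± 0.17, adjusted p = 2.34e-06) and 3.57-fold in wild type (1.84 ± 0.17, adjusted p = 7.89e-06). After caerulein the genotype difference was -0.14 with a 95% interval from -0.52 to 0.23, and the interaction was 0.18 with an interval from -0.35 to 0.71, so of the 2 tropomyosins Tpm4 had the narrower bounds on a genotype effect.

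Myh9 encodes the heavy chain of nonmuscle myosin IIA, the motor that contracts actin bundles, and lies at chr15:77760585-77842175. By its brightest probe set, 1420172_at, it read 1057.1, 1142.3 and 1318.4 in Mist1KO after caerulein and 687.3, 790.3 and 733.4 in Mist1KO after saline. Wild type signals were 1571.8, 1361.3 and 1849.4 after caerulein and 757.6, 740.5 and 804.1 after saline. Caerulein arrays lay above saline arrays in both genotypes, and the Mist1KO caerulein arrays lay below those of wild type. Myh9 rose 1.57-fold in Mist1KO (0.65 ± 0.13, adjusted p = 0.00193) and 2.04-fold in wild type (1.03 ± 0.13, adjusted p = 7.71e-05).

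All 4 probe sets of Myh9 rose after caerulein in both genotypes, by 0.65 to 1.43 in Mist1KO and by 0.90 to 1.35 in wild type. They did not share a genotype difference. After caerulein the brightest set was lower in Mist1KO than in wild type (-0.43 ± 0.13, adjusted p = 0.0279), whereas 1417472_at, with 1369 ± 194 in Mist1KO and 1072 ± 122 in wild type, had a difference of 0.34 ± 0.14 that did not pass (adjusted p = 0.0997). The other two sets were at -0.12 ± 0.28 (adjusted p = 0.809) and 0.37 ± 0.18 (adjusted p = 0.175). With the mean over the 4 sets the difference was 0.041 (adjusted p = 0.815), opposite in sign. The call also ended without wild type caerulein replicate 1 (adjusted p = 0.0554) or replicate 3 (adjusted p = 0.115) and without Mist1KO caerulein replicate 1 (adjusted p = 0.116) or replicate 2 (adjusted p = 0.0807). It ended too with arrays centred on their median (-0.35, adjusted p = 0.0729), without the variance trend (adjusted p = 0.0683) and with the caerulein groups fitted alone (adjusted p = 0.0753). The interaction of the brightest set, -0.37 ± 0.18, did not pass (adjusted p = 0.317).

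Flna encodes filamin A, which crosslinks actin filaments into an orthogonal mesh, and lies at chrX:74223461-74249854. It read 648.2, 425 and 602.4 in Mist1KO after caerulein and 222.7, 667.5 and 129.3 in Mist1KO after saline. Wild type arrays gave 236.6, 202 and 355.3 after caerulein and 112.6, 190.5 and 601.3 after saline. Each saline group held 1 pancreas far above the other two, replicate 2 in Mist1KO and replicate 3 in wild type, and the injections overlapped in both genotypes. The caerulein changes of 0.97 ± 0.54 in Mist1KO (adjusted p = 0.221) and 0.10 ± 0.54 in wild type (adjusted p = 0.916) did not pass, with 95% intervals from -0.18 to 2.12 and from -1.05 to 1.25. Without Mist1KO saline replicate 2 the change in Mist1KO was 1.59 and passed (adjusted p = 0.0387), and without wild type saline replicate 3 the change in wild type was 0.74 and did not pass (adjusted p = 0.319). After caerulein the 3 Mist1KO arrays lay above the 3 of wild type, at 1.04 ± 0.54 (adjusted p = 0.196). This difference passed when the caerulein groups were fitted alone (adjusted p = 0.0129), a fit that leaves out the spread of the saline arrays.

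Tubb6 encodes a class V beta-tubulin, a subunit of microtubules that most adult tissues make in small amounts, and lies at chr18:67390731-67402749. It read 556.5, 826.1 and 320.3 in Mist1KO after caerulein and 9.3, 10 and 9.6 in Mist1KO after saline. The wild type pancreata read 184.5, 282.9 and 382.2 after caerulein and 14.9, 13.1 and 8.8 after saline. All saline signals lay below the offset of 18.7, so the fold is understated and its size rests on the offset, while the lowest caerulein signal was 184.5. On the offset scale Tubb6 rose 19.3-fold in Mist1KO (4.27 ± 0.30, adjusted p = 4.82e-07) and 9.42-fold in wild type (3.24 ± 0.30, adjusted p = 7.19e-06). The changes were 4.83 and 3.71 with the offset halved.

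After caerulein Tubb6 was 1.89-fold higher in Mist1KO than in wild type (0.92 ± 0.30, adjusted p = 0.0474), though Mist1KO replicate 3 lay below wild type replicate 3. That call was marginal: it held in 6 of 22 alternatives, with adjusted p-values from 0.0088 to 0.228. It ended with the replicate block (adjusted p = 0.0609) and after leaving out any array other than wild type caerulein replicate 3 or Mist1KO caerulein replicate 3. Of the arrays of this comparison, leaving out wild type caerulein replicate 1 gave 0.66 (adjusted p = 0.178) or replicate 2 gave 0.94 (adjusted p = 0.0969), and leaving out Mist1KO caerulein replicate 1 gave 0.88 (adjusted p = 0.132) or replicate 2 gave 0.60 (adjusted p = 0.228). Without any 1 saline array the adjusted p-value was 0.0515 to 0.0584. The interaction, 1.04 ± 0.43, did not pass (adjusted p = 0.239).

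Tnfrsf12a, a small receptor of the tumour necrosis factor receptor family, lies at chr17:23675445-23677449. By 1418572_x_at it read 1908.1, 1831.4 and 971.5 in Mist1KO after caerulein and 110.5, 134.4 and 96.4 in Mist1KO after saline. In wild type it read 1074, 1666.6 and 1689.4 after caerulein and 110.5, 154.9 and 41.1 after saline. The injections stood apart and the genotypes overlapped under either injection. Tnfrsf12a rose 11.6-fold in Mist1KO (3.53 ± 0.34, adjusted p = 6.15e-06) and 13.3-fold in wild type (3.73 ± 0.34, adjusted p = 5.74e-06).

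The suffix _x_at marks sets with probes that may bind other transcripts. The other set, 1418571_at, had a lower mean log2 value over the 12 arrays (7.97, against 8.73 for 1418572_x_at) but a higher mean signal after caerulein, 1764 in Mist1KO and 1761 in wild type, against 1570 and 1477 for 1418572_x_at. It read 2031.3, 2049.1 and 1211.9 in Mist1KO after caerulein and 10.2, 29.5 and 7.8 in Mist1KO after saline. Wild type pancreata read 1357.8, 1993.8 and 1932.7 by this set after caerulein and 11.6, 47.6 and 9.9 after saline. Its saline signals were far dimmer and its rises larger, 52.1-fold in Mist1KO (5.70 ± 0.32, adjusted p = 1.06e-07) and 45.5-fold in wild type (5.51 ± 0.32, adjusted p = 2.42e-07). Neither set differed past the threshold between genotypes. After caerulein the differences were 0.06 with a 95% interval from -0.68 to 0.79, and -0.02 with an interval from -0.71 to 0.68.

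Cd44, the hyaluronan receptor, lies at chr2:102811141-102901669. By its brightest probe set, 1423760_at, it read 704.8, 738.9 and 565.1 in Mist1KO after caerulein and 93.1, 186.8 and 112.8 in Mist1KO after saline. In wild type it read 251.1, 254.1 and 240.9 after caerulein and 167.7, 103 and 146.2 after saline. The lowest Mist1KO caerulein array was above the highest of all other arrays, wild type caerulein formed a tight middle group, and the saline groups overlapped. Cd44 rose 4.73-fold in Mist1KO (2.24 ± 0.22, adjusted p = 5.89e-06) and 1.72-fold in wild type (0.78 ± 0.22, adjusted p = 0.0206). After caerulein it was 2.56-fold higher in Mist1KO than in wild type (1.36 ± 0.22, adjusted p = 0.000647), which passed in all 22 alternatives. After saline the difference was -0.10 with a 95% interval from -0.57 to 0.36.

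The caerulein response of Cd44 was larger in Mist1KO than in wild type by 1.46 ± 0.30 (interaction, adjusted p = 0.0195). That call missed the threshold without Mist1KO saline replicate 3 (adjusted p = 0.0571), without Mist1KO caerulein replicate 1 (adjusted p = 0.0557) or replicate 2 (adjusted p = 0.0557), and with the mean of both probe sets (1.40, adjusted p = 0.0733). The rise in wild type also missed it without wild type saline replicate 2 (adjusted p = 0.0814) and without wild type caerulein replicate 2 (adjusted p = 0.0552) or replicate 3 (adjusted p = 0.0503). The dimmer set, 1452483_a_at, averaged 180 ± 35.1 in Mist1KO after caerulein and 20.1 ± 17.3 in Mist1KO after saline, against 52.5 ± 30.4 in wild type after caerulein and 14.5 ± 14.6 in wild type after saline. It rose in Mist1KO (2.43 ± 0.40, adjusted p = 0.000561), did not pass in wild type (1.10 ± 0.40, adjusted p = 0.0748), and was higher in Mist1KO than in wild type after caerulein (1.55 ± 0.40, adjusted p = 0.0154). Its interaction of 1.33 ± 0.57 did not pass (adjusted p = 0.256).

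**Figure D2:**
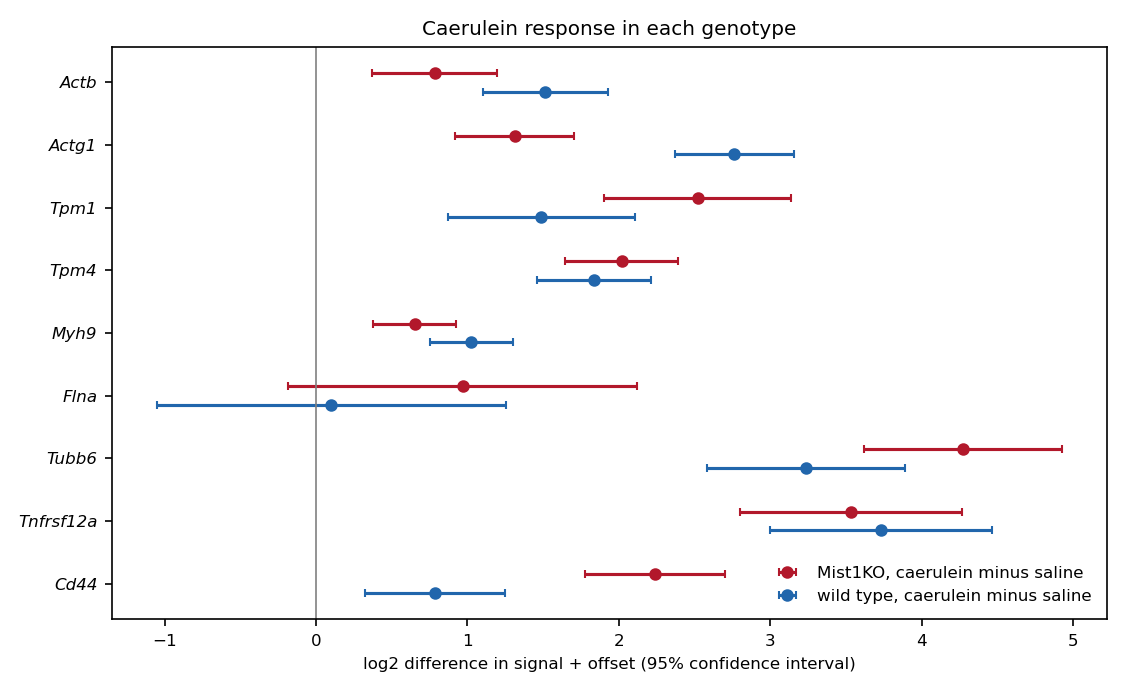
Caerulein minus saline on the log2 scale for each gene by its brightest probe set, Mist1KO in red above wild type in blue, with 95% confidence intervals from the fit to all 12 arrays. Tubb6 and Tnfrsf12a show the largest differences in both genotypes, the intervals of Actg1 and of Cd44 do not overlap between genotypes, and both intervals of Flna include 0.

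**Figure D3:**
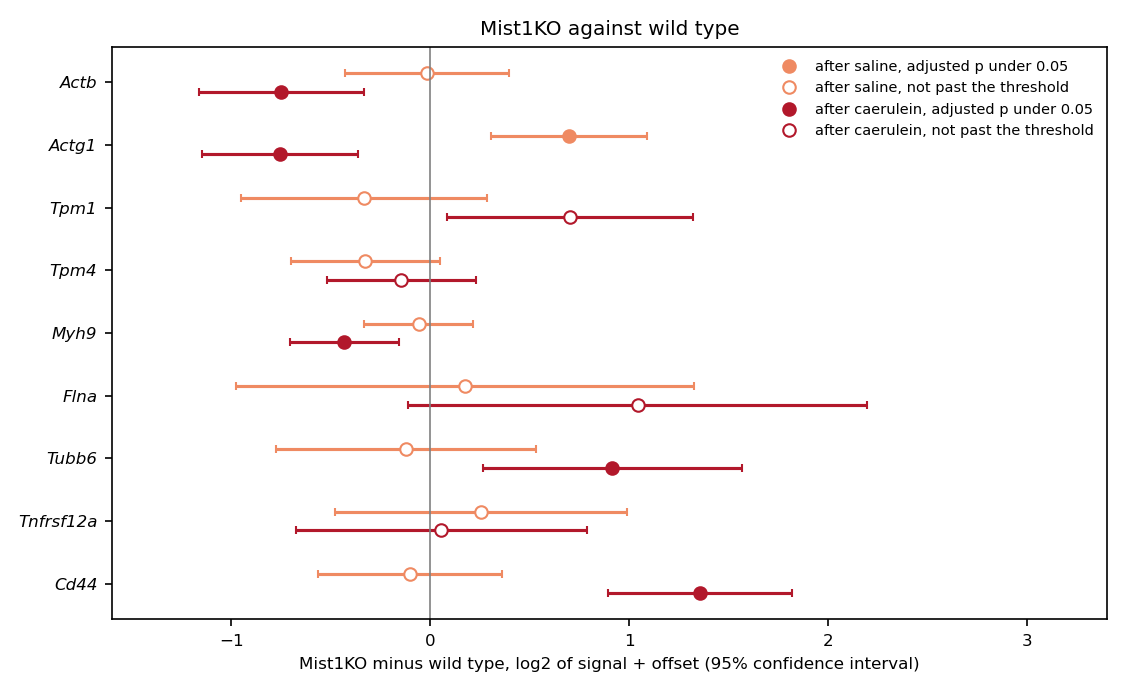
Mist1KO minus wild type on the log2 scale for each gene, after saline above and after caerulein below, with 95% confidence intervals. Filled points passed the threshold of adjusted p under 0.05. Actg1 lies to the right of 0 after saline and to the left of 0 after caerulein, and Cd44 lies farthest to the right after caerulein.

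Genes with several probe sets bear on how far one reading can be trusted. Of the 17 probe sets, 14 rose after caerulein in Mist1KO and 14 in wild type, and none fell. Sets of the same gene are not separate results. The share over all probe sets was not computed. Over all genes tested, 10.2% were higher and 14.0% lower in Mist1KO, and 8.74% and 9.96% in wild type. In Mist1KO the remaining sets were 1419734_at of Actb, 1456623_at of Tpm1 and that of Flna. In wild type they were 1419734_at of Actb, that of Flna and 1452483_a_at of Cd44.

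**Figure D4:**
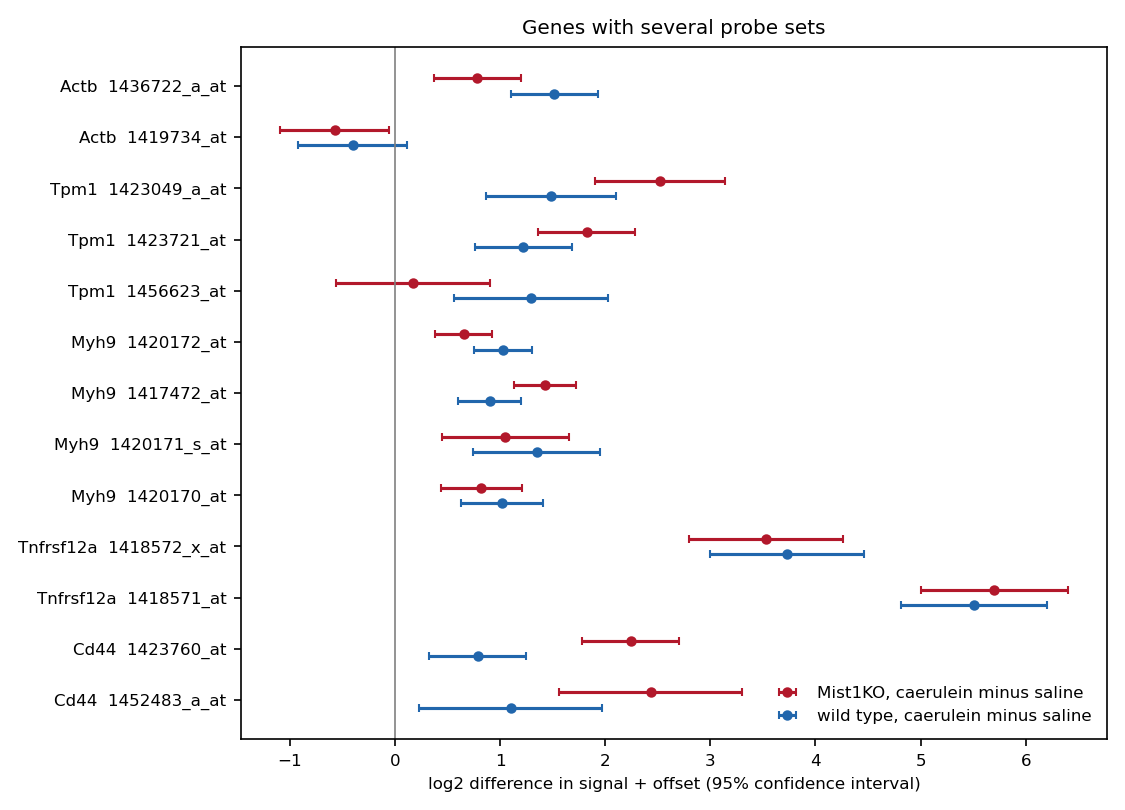
Caerulein minus saline on the log2 scale for each probe set of the 5 genes that have several, Mist1KO in red above wild type in blue, with 95% confidence intervals. The 4 sets of Myh9 and both sets of Tnfrsf12a lie to the right of 0 in both genotypes, whereas the 2 sets of Actb lie on opposite sides of 0.

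Genes that work with these 9 were read from lists chosen with earlier results of these data known, so their counts describe the lists and are not independent support. None of the 9 genes is counted in them. Of 17 tested genes of other actin isoforms and actin turnover, 10 were higher after caerulein in Mist1KO and 7 in wild type, none lower in either, with median changes of 0.73 and 0.42. Over all genes 10.2% were higher and 14.0% lower in Mist1KO, and 8.74% and 9.96% in wild type. For the genotype counts of these lists, 9.03% of all genes were higher and 11.6% lower in Mist1KO after caerulein, and 6.14% and 6.95% after saline. The interaction passed for 1.48% of all genes with a larger and 1.87% with a smaller response in Mist1KO. Dstn, or destrin, which severs and depolymerises filaments, averaged 6538 in Mist1KO after caerulein and 1358 after saline (2.26 ± 0.18, adjusted p = 1.18e-06), and 7034 in wild type after caerulein and 834 after saline (3.03 ± 0.18, adjusted p = 2.42e-07). Tmsb10, a thymosin that holds actin monomers, rose by 3.07 ± 0.23 in Mist1KO and 2.81 ± 0.23 in wild type. Cfl1, or cofilin, and Pfn1, or profilin, which recycle monomers, rose in both genotypes too, by 1.47 ± 0.16 and 1.72 ± 0.19 in Mist1KO and by 1.27 ± 0.16 and 1.45 ± 0.19 in wild type.

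After caerulein 6 of these 17 genes were higher in Mist1KO than in wild type and none was lower. Pfn1 was the clearest, with means of 1706 in Mist1KO and 747 in wild type (1.18 ± 0.19, adjusted p = 0.000681). The count of 6 was 3 to 7 when single arrays were left out, and it moved by over 1.5 times without wild type caerulein replicate 2 or Mist1KO caerulein replicate 2. After saline 2 were higher in Mist1KO, Pfn1 (0.92 ± 0.19, adjusted p = 0.00747) and Dstn (0.69 ± 0.18, adjusted p = 0.0249), and 1 was lower, the smooth muscle gene Actg2 (-0.75 ± 0.21, adjusted p = 0.0363). The count of genes higher after saline was 1 to 4 and that of genes lower 0 to 1 when single arrays were left out, moving without any of the wild type saline arrays or Mist1KO saline replicate 1.

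The Arp2/3 complex starts branched filaments. Of 9 tested genes of the complex and its activators, 7 rose in Mist1KO and 3 in wild type, and 6 were higher in Mist1KO than in wild type after caerulein. The subunit Arpc2 averaged 2218 in Mist1KO after caerulein and 758 after saline (1.52 ± 0.11, adjusted p = 5.43e-07), and 1380 in wild type after caerulein and 636 after saline (1.09 ± 0.11, adjusted p = 1.47e-05). The response itself was larger in Mist1KO for 3 of the 9, Cttn, or cortactin, which stabilises branches (0.85 ± 0.18, adjusted p = 0.021), and the subunits Actr3 (0.81 ± 0.18, adjusted p = 0.0241) and Arpc4 (0.96 ± 0.22, adjusted p = 0.0271). That count lay between 0 and 3 when single arrays were left out, and it moved by over 1.5 times without wild type caerulein replicate 3, any of the 3 Mist1KO saline arrays, or Mist1KO caerulein replicates 1 or 2.

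Proteins that crosslink filaments or tie them to adhesions rose in 14 of 24 genes in Mist1KO, with 1 lower, and in 9 of 24 in wild type, with none lower. The median changes were 0.96 and 0.13. Actn4, an alpha-actinin, rose by 2.41 ± 0.14 in Mist1KO (adjusted p = 1.06e-07) and 1.95 ± 0.14 in wild type (adjusted p = 7.41e-07). Zyx, or zyxin, which marks stretched filament bundles, averaged 2285 after caerulein and 311 after saline in Mist1KO, and 1556 after caerulein and 275 after saline in wild type. In 6 of the 24 the caerulein response was larger in Mist1KO than in wild type and in none smaller. Actn1, the other nonmuscle alpha-actinin, led by size, with means of 4390 in Mist1KO and 1340 in wild type after caerulein and an interaction of 1.68 ± 0.25 (adjusted p = 0.00378). Cnn3, a calponin (1.11 ± 0.14, adjusted p = 0.00155), and Tln1, or talin, which links integrins to actin (1.54 ± 0.26, adjusted p = 0.00622), were among the others. Vcl, or vinculin, was higher in Mist1KO both after saline (0.65 ± 0.14, adjusted p = 0.0104) and after caerulein (1.06 ± 0.14, adjusted p = 0.000176). After caerulein 9 of the 24 were higher and 3 lower in Mist1KO than in wild type. After saline 2 were higher and 1 lower, and the lower one, Pdlim1, which binds alpha-actinin, had the lowest adjusted p of the list in that comparison (-1.17 ± 0.15, adjusted p = 0.000372). With single arrays left out, 1 to 2 were higher and 1 to 3 lower after saline, and the 3 were reached without Mist1KO caerulein replicate 3.

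Partners of Myh9 moved both ways. Of 13 tested genes of nonmuscle myosin and its regulators, 4 were higher and 1 lower after caerulein in each genotype. The regulatory light chain gene Myl12a rose (1.69 ± 0.17 in Mist1KO and 1.47 ± 0.17 in wild type), while the closely related Myl12b fell (-0.57 ± 0.11 in Mist1KO and -0.70 ± 0.11 in wild type). The 2 transcripts are alike enough that probes may read both. Both tropomyosins outside the 9 genes rose in Mist1KO and neither in wild type, and for Tpm3 the interaction passed (1.28 ± 0.20, adjusted p = 0.00406). The rise of Tpm2 (1.17 ± 0.32, adjusted p = 0.0154) ended without single Mist1KO arrays, so that 1 of 2 was then called without Mist1KO saline replicates 1 or 3 or Mist1KO caerulein replicates 1 or 2.

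Tubulins other than Tubb6 rose in 6 of 9 tested genes in Mist1KO and in 4 of 9 in wild type, none fell, and the median changes were 1.53 and 0.42. Tubb4b averaged 1295 in Mist1KO after caerulein and 154 after saline (2.97 ± 0.26, adjusted p = 2.51e-06), and 702 in wild type after caerulein and 147 after saline (2.20 ± 0.26, adjusted p = 4.93e-05). Tubb5, a widely expressed beta-tubulin, averaged 2058 in Mist1KO after caerulein and 621 after saline (1.70 ± 0.15, adjusted p = 2.45e-06). After caerulein it averaged 2058 in Mist1KO and 531 in wild type (1.92 ± 0.15, adjusted p = 1.67e-06), and its caerulein response was larger in Mist1KO (1.74 ± 0.21, adjusted p = 0.000997). After caerulein 4 of the 9 were higher and 1 lower in Mist1KO than in wild type, with a median difference of -0.19. The lower one was not called after quantile normalization or with arrays centred on their median. Without any 1 of the wild type caerulein arrays, or without Mist1KO caerulein replicate 1, 3 were higher and the lower one was not called. Tubb2a, which averaged 249 in wild type after caerulein and 19 after saline, rose there by 2.87 ± 0.35 (adjusted p = 6.12e-05).

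Epithelial injury genes other than Tnfrsf12a and Cd44 were read as a further list. Of 28 tested genes of integrins, keratins, annexins and other injury genes, 19 rose in Mist1KO and 12 in wild type, and none fell, with median changes of 1.55 and 0.45. After caerulein 10 were higher and 1 lower in Mist1KO than in wild type, and the interaction passed for 5 with a larger and 1 with a smaller response in Mist1KO. Timp1, an inhibitor of matrix proteases, averaged 805 in Mist1KO and 151 in wild type after caerulein, with an interaction of 2.73 ± 0.28 (adjusted p = 0.000406). Anxa2, a membrane-binding annexin that bundles actin, averaged 3365 in Mist1KO and 887 in wild type after caerulein (1.91 ± 0.13, adjusted p = 4.47e-07). Sphk1, a sphingosine kinase, was the one with a smaller response in Mist1KO (-1.47 ± 0.27, adjusted p = 0.0096). Sphk1 was also higher in Mist1KO than in wild type after saline (0.96 ± 0.19, adjusted p = 0.0056), as Actg1 was.

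**Figure D5:**
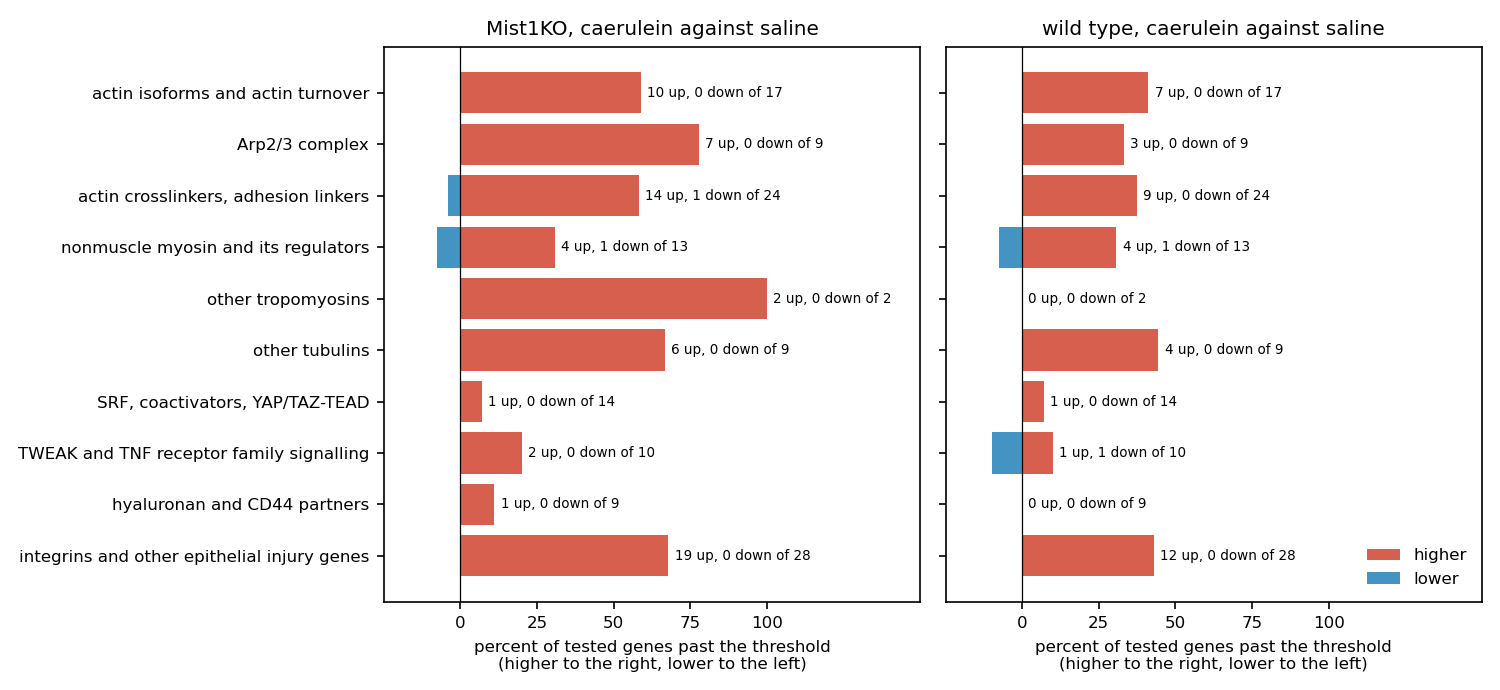
Percent of the tested genes of each list that were higher (red, to the right) or lower (blue, to the left) after caerulein, Mist1KO on the left and wild type on the right, with the counts beside the bars. Lists of actin turnover, the Arp2/3 complex, crosslinkers, tubulins and injury genes have more called genes in Mist1KO than in wild type, while the lists of SRF with YAP/TAZ, TWEAK signalling and CD44 partners have few in either.

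Counts for ligands, signalling partners and upstream factors stand beside shares over all genes of 10.2% higher in Mist1KO, and 8.74% higher and 9.96% lower in wild type. Of 14 tested genes of serum response factor, its coactivators and the YAP/TAZ pathway, 1 rose in each genotype, Srf itself, with means of 467 in Mist1KO after caerulein and 197 after saline (1.12 ± 0.26, adjusted p = 0.00571), and 357 in wild type after caerulein and 120 after saline (1.46 ± 0.26, adjusted p = 0.00123). In Mist1KO that count became 3 after quantile normalization and 4 with arrays centred on their median. It was 2 or included 1 lower gene when wild type saline replicates 1 or 3, wild type caerulein replicate 2 or Mist1KO saline replicate 2 was left out, and the count in wild type moved likewise without wild type saline replicate 1 or Mist1KO saline replicate 3. Among 10 tested genes of TWEAK and tumour necrosis factor receptor signalling, 2 rose in Mist1KO, the receptor Tnfrsf1a (0.81 ± 0.15, adjusted p = 0.0011) and the NF-kB subunit Relb (1.75 ± 0.42, adjusted p = 0.00734). In wild type Tnfrsf1a rose (0.71 ± 0.15, adjusted p = 0.00408) and the ubiquitin ligase Birc3 fell (-0.64 ± 0.18, adjusted p = 0.0237). The count of genes lower in wild type there was 0 to 2 when single arrays were left out, and moved when wild type saline replicate 1 was left out, and likewise for replicate 2 of wild type caerulein. Among 9 tested hyaluronan and CD44 partners, Tgfb1, a cytokine, was the one gene to rise, in Mist1KO (2.00 ± 0.22, adjusted p = 1.94e-05), and its response was larger there than in wild type (1.94 ± 0.31, adjusted p = 0.00495).

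The profiles of the 9 genes over the 12 arrays were compared with those of 9345 other tested genes, by the root mean square difference of the log2 values after each gene was centred on its own mean. Tubb6 and Tnfrsf12a were each other's nearest gene (0.47). Tpm1 lay nearest to Clic1, an intracellular chloride channel protein (0.29), and next to Actn4 (0.36). The nearest gene of Actg1 was Sat1, which acetylates polyamines (0.30), and the nearest of Actb was Jun, an AP-1 transcription factor (0.24), with Myh9 the closest of the other members (0.27). Like Actg1, Sat1 had its highest mean in wild type after caerulein, at 1993 ± 331, against 1017 ± 180 in Mist1KO after caerulein. Cd44 lay nearest to B4galt6, a galactosyltransferase (0.30), which averaged 441 ± 36.1 in Mist1KO after caerulein and 194 ± 35.5 in wild type after caerulein. For Flna the nearest gene was 0.49 away, against a root mean square of 0.83 for its own profile. These distances are descriptions over 12 arrays that share their groups and scaling.

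Other cell types of the organ that make these proteins in quantity were read from their markers. The counts of called markers stand beside shares over all genes of 10.2% higher and 14.0% lower after caerulein in Mist1KO, and 8.74% and 9.96% in wild type. Between genotypes after caerulein, 9.03% of all genes were higher and 11.6% lower in Mist1KO. A count of none or 1 in lists this short lies near such shares. Smooth muscle cells are rich in contractile actin and tropomyosin, and their 9 markers, of which Tagln, Cnn1 and Lmod1 were too dim to test, summed to 570 to 598 in Mist1KO after caerulein and 557 to 607 in Mist1KO after saline. In wild type they summed to 770 to 1027 after caerulein and 710 to 976 after saline. Of the 6 tested, 1 was higher after caerulein in Mist1KO, Actg2, and none in wild type, and Actg2 was not called without Mist1KO caerulein replicate 2. After caerulein 2 of the 6 were lower in Mist1KO than in wild type, Myh11 and Des, and none was higher. After saline 2 were lower, Myh11 and Actg2, and none higher, against 6.95% and 6.14% of all genes. With single arrays left out these counts of lower genes were 1 to 3 and 0 to 2. After quantile normalization each was 1. The part of smooth muscle in the lower Actb, Actg1 and Myh9 was not tested. The 9 fibroblast markers, with Pdgfrb dim, summed to 2015 to 2688 in Mist1KO after caerulein and 3279 to 4685 in Mist1KO after saline, and to 1927 to 2917 in wild type after caerulein and 2626 to 4769 in wild type after saline. None of the 8 tested was higher after caerulein in either genotype, with 4 lower in Mist1KO and 2 in wild type. Leaving out single arrays gave 1 to 4 lower in Mist1KO and 1 to 6 in wild type, with every array but Mist1KO saline replicate 1 moving the count of its own genotype by over 1.5 times.

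Leukocytes carry Cd44. Their 14 markers, with S100a9 dim, summed to 1876 to 2284 in Mist1KO after caerulein and 1588 to 2517 in Mist1KO after saline, and to 1471 to 1618 in wild type after caerulein and 1615 to 2649 in wild type after saline. The caerulein sums were thus higher in Mist1KO than in wild type without overlap, as Cd44 was, and the part of leukocytes in the Cd44 difference was not tested. Of the 13 tested, 1 was higher after caerulein than after saline in Mist1KO, Cd14 (2.00 ± 0.25, adjusted p = 5.40e-05), and 1 was higher in Mist1KO than in wild type after caerulein, Cd52 (1.27 ± 0.40, adjusted p = 0.0393). In wild type 3 fell and none rose. The count of genes higher in Mist1KO than in wild type after caerulein was 0 to 2, and that of genes lower after caerulein in wild type 0 to 4, when single arrays were left out. Arrays that moved the first were wild type saline replicate 2, wild type caerulein replicates 1 and 2, Mist1KO saline replicates 1 and 2 and Mist1KO caerulein replicates 1 and 3. Those that moved the second were wild type saline replicates 1 and 3 and wild type caerulein replicates 2 and 3. Endothelial markers, with Cldn5 and Tie1 dim, summed to 753 to 885 in Mist1KO after caerulein and 943 to 1032 in Mist1KO after saline, and to 1081 to 1227 in wild type after caerulein and 1213 to 1329 in wild type after saline.

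Acinar cells make up most of the organ, and all 10 of their annotated markers were tested. They summed to 72687 to 111142 in Mist1KO after caerulein and 125494 to 147383 in Mist1KO after saline, against 143028 to 198628 in wild type after caerulein and 171544 to 218098 in wild type after saline. After caerulein 8 of the 10 were lower in Mist1KO than in wild type, and 9 of 10 were lower in Mist1KO after caerulein than after saline. After quantile normalization these counts were 0 and 2, and the count of 9 was 2 to 9 when single arrays were left out, moving without Mist1KO saline replicates 1 or 2 or Mist1KO caerulein replicates 1 or 2. The duct and islet lists had 7 and 6 annotated markers, of which 5 were tested in each. Duct markers summed to 7872 to 10042 after caerulein and 10887 to 12570 after saline in Mist1KO. In wild type they summed to 12809 to 16142 and 14332 to 18403. Islet markers summed to 9574 to 10824 after caerulein and 12927 to 14379 after saline in Mist1KO, and to 11012 to 16157 and 13500 to 14258 in wild type. After caerulein 1 duct marker was higher and 1 lower in each genotype. Of the islet markers 0 were higher and 1 was lower in Mist1KO, and none was called in wild type. The higher duct marker was Krt19, a keratin, in both genotypes, and the lower one in wild type, Muc1, was not called when wild type saline replicate 2 was left out, nor without replicates 1 or 3 of wild type caerulein. The islet count of 1 lower in Mist1KO was 1 to 2 when single arrays were left out, moving without wild type caerulein replicates 1 or 3 or Mist1KO caerulein replicate 3, and 1 islet marker was lower in wild type without wild type saline replicate 2. No marker in any of these lists was listed at 0, and what part the lower acinar signal had in the scaled values of the 9 genes was not tested.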

How the data were processed

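RNA of 12 whole pancreata, about 10 µg each per the labels, was measured on 12 Affymetrix arrays, 1 per pancreas. The deposited values are linear signal intensities, 1 per probe set; the labels name neither their software nor a scaling target. Array medians were 70.6 to 90.15 and 2% trimmed means 151.08 to 151.37, and the authors' scaling was kept. Groups came from the titles, and identical arrays were not found. Precision is limited by the number of arrays. Probe sets were named from the platform annotation where it gave 1 symbol.

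Before log2, 18.7 was added to each signal (the 20th percentile over the 12 arrays). Controls and probe sets at or below the 30th percentile of mean log2 values were left out. Group means were estimated by limma 3.58.1 under R 4.3.3 (functions lmFit and eBayes with trend; 8 residual and 5.75 prior degrees of freedom), two-sided, with Benjamini-Hochberg adjustment over 15716 probe sets. In data simulated with normal noise for wild type caerulein against saline over 15716 probe sets, 57 of 100 changes of 1 log2 unit and 92 of 100 changes of 2 were found, with 5 false calls. No other probe set was changed there, while 18.7% of genes passed in the real comparison, so these rates may not carry over. The values showed no pairing of arrays by replicate number (see the closing section). Figures used matplotlib 3.10.9 in Python 3.11.15, and the permutation test scipy 1.17.1.

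The members and lists were chosen with earlier results of these data known. Of 237 list genes, 212 were annotated. Named list genes were up to 4 per list and comparison with the lowest adjusted p among those past the threshold. Alternatives were other offsets, filters, scalings, probe set summaries and fits, and leaving out each array.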

Additional observations from a re-analysis of the deposited data

Results flagged for a closer look

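The caerulein response of 2 genes differed between the genotypes by the interaction test. Actg1 (probe set 1415779_s_at) had a smaller response in Mist1KO than in wild type, by a log2 difference of -1.45 ± 0.26. Cd44 (probe set 1423760_at) had a larger response in Mist1KO than in wild type, by 1.46 ± 0.30. Of all 9481 genes tested, 3.34% passed this test.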

How the results depend on the processing

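Over 45 gene and comparison pairs, 938 of 981 values kept their side of the threshold with no called value changing sign, 40 lost the call, 2 gained it and 1 called value turned its sign. That one was Myh9 in Mist1KO caerulein against wild type caerulein, at 0.041 with the mean over its probe sets, as its probe sets disagree. Among the 938, 21 uncalled values changed sign. The counts of genes called after caerulein were 8 in both genotypes, 7 with the mean over probe sets, and 8 to 9 in Mist1KO and 7 to 8 in wild type when single arrays were left out. For Mist1KO saline against wild type saline the count of 1 became 0 without the variance trend and was 0 to 1 without single arrays. For Mist1KO caerulein against wild type caerulein the count of 5 became 3 after quantile normalization and 3 without the trend, and 2 to 5 without single arrays; it was 3 without wild type caerulein replicates 1 or 3 or Mist1KO caerulein replicate 1, and 2 without Mist1KO caerulein replicate 2. The interaction count of 2 became 1 with the mean over probe sets and was 1 to 2 without single arrays. The cause of these changes was not tested. Centring arrays on their medians moved the median of all genes by 0.13 for caerulein against saline in wild type and 0.12 in Mist1KO. Same-numbered arrays correlated at -0.10 to 0.05 over 18 pairs, none over 0.1, and 2 of 12 arrays correlated best with their own number. The values thus showed no pairing by number. Deviations from means of 3 arrays cannot exclude that same-numbered animals were handled together. With the replicate block the counts were 1 for Mist1KO saline against wild type saline, 8 for caerulein in each genotype, 4 for Mist1KO caerulein against wild type caerulein and 2 for the interaction. Dim signals, such as Tubb6 after saline, limit how far a fold can be read.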
